A study of Mus musculus with 9 samples.

Results

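The 39 genes described here are genes of leukocytes and macrophages, chosen by name as genes that should be low in sorted tumour cells: 7 pan-leukocyte genes, 4 Fc receptor and adaptor genes, 9 macrophage surface receptor genes, the 3 chains of complement C1q, 4 members of the MS4A family, 5 MHC class II genes, 2 neutrophil S100 genes and 5 intracellular myeloid genes. All 39 were among the 14108 genes listed in the counts. The counts came from RNA-seq of GFP-positive cells sorted from 9 mouse mammary tumours, 3 of each of the models HR1, LM1 and LM9. HR1 is a non-metastatic mammary cancer cell line from a transgenic mouse that expressed mutant *PIK3CA* under the CAG promoter, and LM1 and LM9 are cell lines from lung metastases that grew from HR1 cells carrying a *piggyBac* transposon, so each model is 1 line. For every tumour 250000 cells of 1 line were placed in the mammary fat pad of a female NOD/SCID mouse (labelled NOD.CB17-Prkcd<scid>/J) aged 4 to 8 weeks, and the tumour was taken out before it reached 1500 mm3. No group was treated, and the host strain was shared by all 9 tumours.

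Leukocytes of all lineages carry the surface phosphatase CD45, which *Ptprc* encodes, together with small membrane and actin-binding proteins that other tissues largely lack. Macrophages depend on the receptor CSF1R and on the transcription factor PU.1, the product of *Spi1*. They clear debris and dying cells through Fc, scavenger and lectin receptors, and tissue macrophages are the main source of the complement protein C1q. NOD/SCID mice lack mature T and B lymphocytes but keep macrophages and other myeloid cells, which enter mammary tumours in large numbers.

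The genes were low but present in every tumour. Expression is given in CPM, counts scaled to the same total in every library, after TMM normalization, a scaling that makes libraries of different depth and composition comparable, and values are listed in the order of replicates 1, 2 and 3. The summed level of the 39 genes was 1359, 1865 and 471 CPM in HR1, 496, 458 and 467 CPM in LM1 and 383, 307 and 427 CPM in LM9. HR1 tumours 1 and 2 thus stood far above the other 7 tumours, whereas HR1 tumour 3 lay within the LM1 range, and the means ± SD were 1232 ± 706 (n = 3), 473 ± 20 (n = 3) and 372 ± 60.5 CPM (n = 3). At the extremes the 39 genes took 0.0307% and 0.186% of all normalized counts of a tumour. Since these are bulk libraries, fewer leukocytes and less RNA of these genes per cell cannot be told apart.

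Total counts ranged from 32393958 to 46681945 per tumour, so that 3 counts, taken as the smallest amount told from 0, corresponded to 0.0643 to 0.0926 CPM (counting error only). The lowest count of any of the 39 genes was 4, for *Cd163*, and 35 genes had over 20 counts in every tumour. *Nfib*, the transposon-hit gene that separates the models, stood at 1343, 23.9 and 18.3 CPM in HR1, 786, 791 and 579 CPM in LM1 and 532, 583 and 421 CPM in LM9. The tumour labelled HR1 replicate 1 therefore did not have the low *Nfib* level of the other HR1 tumours and lay above all LM tumours. For some genes it lay with the other HR1 tumours, such as *Pla2g7*, at 110, 199 and 271 CPM in HR1 and 3.71 to 11.3 CPM in the LM tumours. For others it lay apart from them, such as *Dcn*, the fibroblast proteoglycan decorin, at 17605, 432 and 329 CPM in HR1, and *Col1a2*, a collagen I chain, at 44.2, 1472 and 2726 CPM. Its label was kept, and the counts of the 39 genes in the HR1 comparisons are also given without it, as is each of their calls that changed. Of 10 mammary epithelial genes 7 were listed, with summed levels of 15.4 to 134 CPM in HR1, 159 to 183 CPM in LM1 and 15 to 18.6 CPM in LM9 (HR1 48.2 to 134 CPM without that tumour), and *Krt8*, *Cldn4* and *Elf5* were not among the listed genes. *Krt14* alone stood at 1.56, 31.4 and 109 CPM in HR1, 152 to 175 CPM in LM1 and 12.2 to 15.4 CPM in LM9. It thus made up most of the sum in the LM tumours. All 10 fibroblast markers were listed, with summed levels of 8328 to 20552 CPM in HR1, 3771 to 4380 CPM in LM1 and 2574 to 2872 CPM in LM9, and with 8328 to 9129 CPM in HR1 without the tumour labelled HR1 replicate 1.

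**Figure D1:**
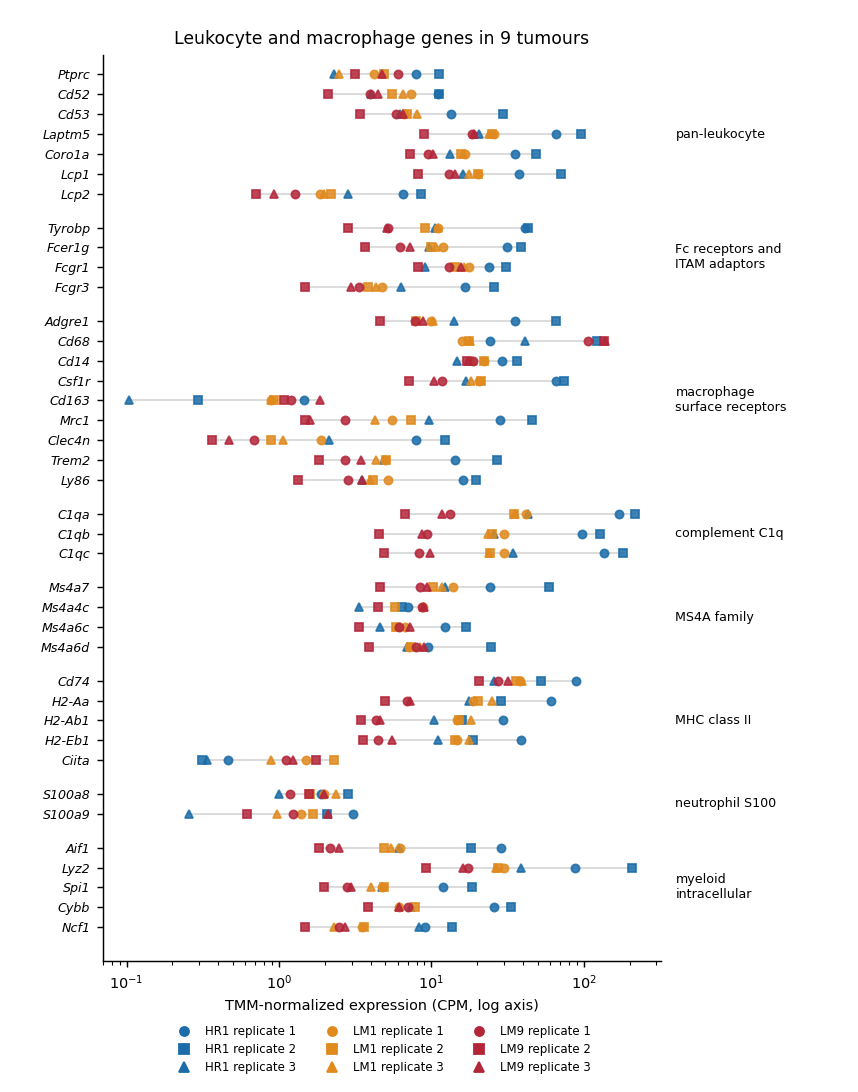
Expression of the 39 leukocyte and macrophage genes in the 9 tumours, in TMM-normalized CPM on a log axis; each point is 1 tumour, colour gives the model, marker shape the replicate, and grey lines join the lowest and highest tumour of a gene. For most genes HR1 tumours 2 and 1 lie to the right and LM9 tumour 2 to the left, whereas *Cd68* has all LM9 tumours above 100 CPM.

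Against HR1 most of these genes fell in LM9, and a smaller share fell in LM1. Tests were edgeR quasi-likelihood F-tests over 14086 genes with Benjamini-Hochberg adjustment, and a gene is said to rise or fall where the adjusted p was under 0.05. In LM1 17 of the 39 genes fell (43.6%) and 1 rose, where 18.7% of all tested genes fell and 16.7% rose. In LM9 28 of the 39 genes fell (71.8%) and 1 rose, where 21.9% of all tested genes fell and 20.4% rose. The median log2 fold change of the 39 genes was -1.29 in LM1 and -2.17 in LM9, beside medians over all tested genes of -0.039 and -0.049. Without the tumour labelled HR1 replicate 1, 17 genes fell in LM1 and 26 in LM9 (background 26.0% and 27.8%), with medians of -1.19 and -1.87. These comparisons share the HR1 tumours and are not independent of each other.

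Between the LM models the differences were smaller. In LM9 against LM1 6 of the 39 genes fell (15.4%) and 1 rose, where 10.6% of all tested genes fell and 11.5% rose, and the median log2 fold change was -0.72 beside 0.005 over all tested genes. Every LM9 tumour lay below every LM1 tumour for 26 of the 39 genes (66.7%), which held for 31.1% of all tested genes. Against HR1 such a separation was found for 10 genes in LM1 (25.6%, background 21.7%) and for 24 genes in LM9 (61.5%, background 25.3%), and without the tumour labelled HR1 replicate 1 for the same numbers of genes with backgrounds of 32.1% and 35.2%.

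Leaving out 1 tumour moved the LM1 counts strongly, and the share of the 39 genes that fell in LM1 against HR1 did not stay above that of all tested genes in every fit. The LM1 versus HR1 calls, 18 in both directions, came to 9 without HR1 replicate 2, 30 without HR1 replicate 3, and 6, 3 and 4 without LM1 replicates 1, 2 and 3. Of the 39 genes 20.5% then fell without HR1 replicate 2 and 74.4% without HR1 replicate 3, where 17.3% and 19.3% of all tested genes fell. Without LM1 replicates 1, 2 and 3 the shares were 12.8%, 5.13% and 7.69%, beside 10.9%, 11.7% and 13.1% of all tested genes. For LM9 versus HR1 the 29 calls came to between 21 and 33, and at the lowest, without LM9 replicate 2, 51.3% of the 39 genes and 14.1% of all tested genes fell. The 7 calls of LM9 versus LM1 came to 15 without HR1 replicate 3, to 2, 4 and 2 without LM1 replicates 1, 2 and 3, and to 2, 2 and 3 without LM9 replicates 1, 2 and 3. Of the 39 genes 20.5%, 17.9% and 35.9% fell without HR1 replicates 1, 2 and 3, beside 22.5%, 12.5% and 13.7% of all tested genes. Without LM1 replicates 1, 2 and 3 the shares were 2.56%, 7.69% and 2.56%, beside 3.82%, 7.09% and 4.35%, and without LM9 replicates 1, 2 and 3 they were 2.56%, 2.56% and 5.13%, beside 3.54%, 4.91% and 3.99%. When the edgeR fit held only the 6 LM tumours there were 25 calls, and 61.5% of the 39 genes and 28.0% of all tested genes fell. Calls that held in every fit without 1 tumour numbered 3 of 18 (*Mrc1*, *Ncf1* and *Ciita*), 21 of 29 and 2 of 7 (*Cd68* and *H2-Ab1*).

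**Figure D2:**
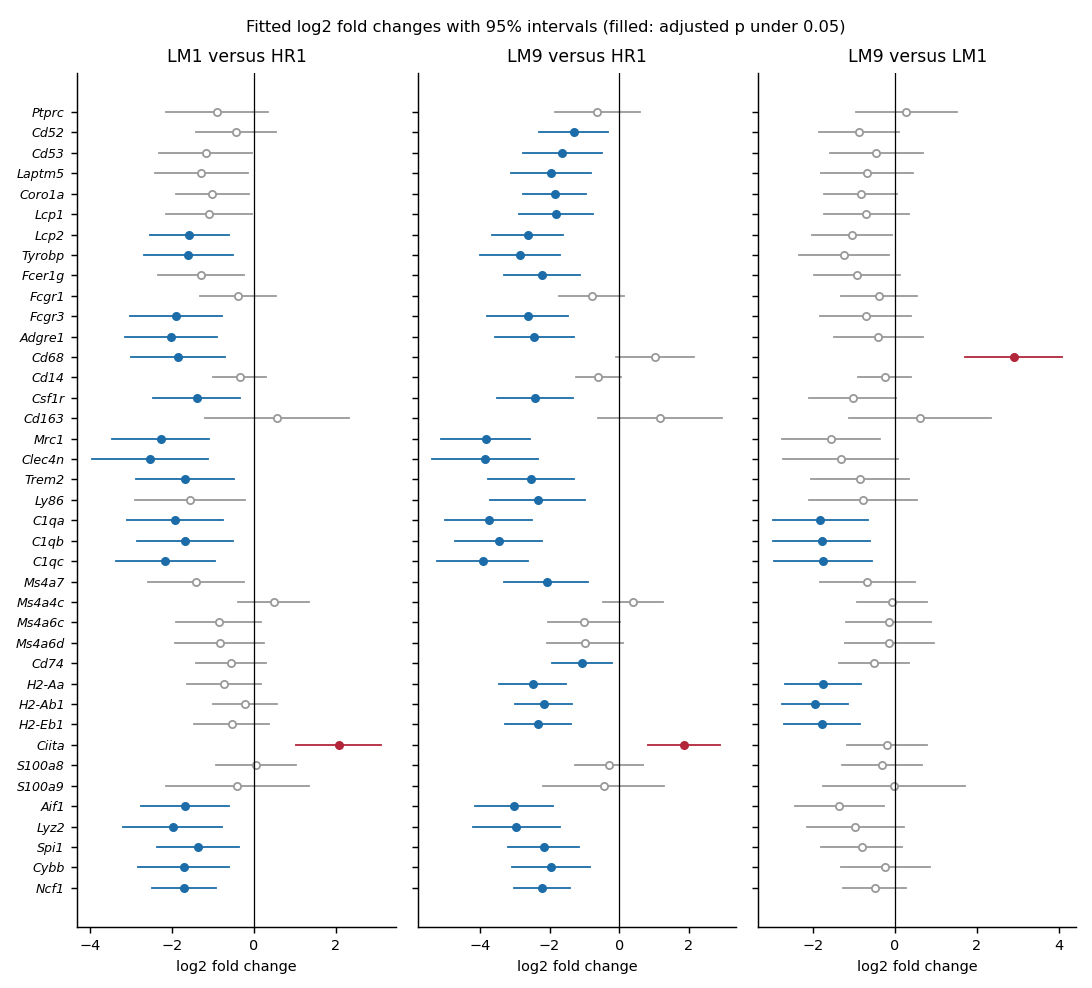
Fitted log2 fold changes of the 39 genes with 95% intervals in LM1 versus HR1, LM9 versus HR1 and LM9 versus LM1, from the edgeR model over 9 tumours; filled blue points fell, filled red points rose and open points did not pass an adjusted p of 0.05. Nearly all points of LM9 versus HR1 lie left of 0, *Ciita* stands to the right in both HR1 comparisons, and *Cd68* stands alone on the right of LM9 versus LM1.

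The pan-leukocyte genes set the general level. *Ptprc* (CD45) stood at 7.91, 11.3 and 2.29 CPM in HR1, 4.18, 4.89 and 2.46 CPM in LM1 and 6.01, 3.16 and 4.73 CPM in LM9. The groups overlapped, and HR1 tumour 3 had the lowest value of all 9 tumours. The log2 fold change of *Ptprc* was -0.90 ± 0.55 (SE) in LM1 and -0.63 ± 0.54 in LM9 (edgeR adjusted p = 0.228 and 0.374), with 95% intervals of -2.14 to 0.34 and -1.86 to 0.60. *Laptm5*, a lysosomal membrane protein of blood cells, stood at 65.8, 96.2 and 20.5 CPM in HR1, 25.8, 25.1 and 23.9 CPM in LM1 and 18.5, 8.95 and 19.2 CPM in LM9. All LM9 tumours lay below all HR1 tumours, but HR1 tumour 3 lay below all LM1 tumours. *Laptm5* fell in LM9 (log2 fold change -1.97 ± 0.51, edgeR adjusted p = 0.015), while its value in LM1 was -1.29 ± 0.50 (edgeR adjusted p = 0.0738).

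Of the 7 pan-leukocyte genes, 6 fell in LM9 against HR1 and 1 in LM1, where 21.9% and 18.7% of all tested genes fell. The 6 were *Laptm5*, the GPI-anchored *Cd52*, the tetraspanin *Cd53*, the actin regulators *Coro1a* and *Lcp1*, and *Lcp2*, the SLP-76 adaptor of immune receptors, with log2 fold changes from -1.31 for *Cd52* to -2.63 for *Lcp2*. *Lcp2* was also the one that fell in LM1 (-1.58 ± 0.43, edgeR adjusted p = 0.021). In LM9 and LM1 against HR1, DESeq2 called 6 and 5 of the 7, and limma-voom 4 and 1. The edgeR fit of only the 6 tumours compared called 4 and 0. The *Cd52* call in LM9 held in 1 of 9 fits without 1 tumour and in 4 of 7 other alternatives. Without the tumour labelled HR1 replicate 1 it was lost at a value of -1.11 (edgeR adjusted p = 0.051, and 0.00566 to 0.115 over the alternatives). Between LM9 and LM1 0 of the 7 passed the edgeR test, 1 (*Lcp2*) had an unadjusted p under 0.05, and DESeq2 and limma-voom each called 0, whereas the edgeR fit of the 6 LM tumours alone called 5. The summed level of the 7 genes averaged 173 ± 106 (SD, n = 3), 79.9 ± 3.02 (n = 3) and 50.8 ± 14.8 CPM (n = 3) in HR1, LM1 and LM9, so HR1 was 3.41 times LM9. Exons of *Cd52* share 172 bases with *Crybg2* and those of *Coro1a* 26 with *Bola2*, both on the opposite strand.

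Complement C1q had the largest fall of any role group in LM9 against HR1 by its summed level. C1q starts the classical complement pathway and is built of A, B and C chains, whose genes *C1qa*, *C1qc* and *C1qb* lie side by side on chromosome 4. *C1qa* stood at 170, 217 and 43.3 CPM in HR1, 41.9, 34.7 and 35.5 CPM in LM1 and 13.2, 6.73 and 11.8 CPM in LM9. *C1qb* stood at 98.1, 128 and 25.9 CPM in HR1, 30, 24.9 and 23.6 CPM in LM1 and 9.44, 4.51 and 8.75 CPM in LM9. *C1qc* stood at 136, 181 and 34.4 CPM in HR1, 30.2, 24.1 and 24 CPM in LM1 and 8.33, 4.9 and 9.79 CPM in LM9. For each chain the 3 LM9 tumours were the lowest of the 9, and HR1 tumour 3 was close to the LM1 tumours, above all of them for *C1qa* and *C1qc* and among them for *C1qb*.

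All 3 chains fell in each comparison. Against HR1 the log2 fold changes in LM9 were -3.76 ± 0.55 for *C1qa*, -3.47 ± 0.56 for *C1qb* and -3.93 ± 0.57 for *C1qc* (edgeR adjusted p = 0.0013, 0.00187 and 0.00122), the last a 15.3-fold lower level. In LM1 they were -1.94 ± 0.51, -1.68 ± 0.52 and -2.17 ± 0.53 (edgeR adjusted p = 0.0189, 0.0333 and 0.0137), calls that held in 5, 4 and 7 of 9 fits without 1 tumour. With limma-voom, the replicate block or only the 6 tumours compared, 2 of the 3 chains were called in LM1, *C1qb* being the one lost. LM9 lay below LM1 by log2 fold changes of -1.82 ± 0.51, -1.79 ± 0.52 and -1.77 ± 0.53 (edgeR adjusted p = 0.0363, 0.0405 and 0.0435). These last calls held in 3 of 9 fits without 1 tumour for each chain, with adjusted p over the alternatives of up to 0.113, 0.12 and 0.129, and limma-voom called 0 of the 3 chains here. Summed over the chains, HR1 was 3.85 times LM1 and 13.4 times LM9, or 3.52 and 12.2 times without the tumour labelled HR1 replicate 1.

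The chains kept a similar proportion while their sum moved. *C1qa* made up 38.9% to 42.7% of the C1q sum over the 9 tumours, *C1qb* 24.3% to 30.5% and *C1qc* 26.9% to 34.4%. *C1qb* took 24.3% to 25% in HR1 and 27.9% to 30.5% in the LM tumours. Per length of exons, *C1qa* was the highest of the 39 genes by its median over the 9 tumours, at 34.1 RPKM, the CPM per kilobase of exons, with *Cd68* at 32.8 RPKM. By model, the mean of *C1qa* was 138, 35.9 and 10.2 RPKM in HR1, LM1 and LM9.

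Promoters are shown for some of the 7 genes that differed between LM9 and LM1, namely *C1qb*, *H2-Aa*, *H2-Eb1* and *Cd68*, from RefSeq GRCm38.p6, the same build as mm10. Each run is the 200 bases before the start of the RNA on the gene's own strand. Capitals mark the letters CCAAT, which the factor NF-Y binds and which MHC class II promoters are known for, and GGAAGT, a word with the GGAA core that PU.1 and other ETS factors bind, both searched on either strand. Read on the opposite strand they appear as ATTGG and ACTTCC, and the words can share GG, which they did not do in these windows.
C1qb, chr4:136886201-136886400, minus strand: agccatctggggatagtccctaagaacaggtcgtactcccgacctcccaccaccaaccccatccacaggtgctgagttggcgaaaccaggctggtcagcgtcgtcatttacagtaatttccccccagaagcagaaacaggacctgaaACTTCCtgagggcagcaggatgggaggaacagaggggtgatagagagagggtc
H2-Aa, chr17:34287824-34288023, minus strand: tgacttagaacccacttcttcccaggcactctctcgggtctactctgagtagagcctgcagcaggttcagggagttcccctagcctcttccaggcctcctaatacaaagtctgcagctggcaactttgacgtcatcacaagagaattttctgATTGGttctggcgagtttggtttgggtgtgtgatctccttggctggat
H2-Eb1, chr17:34305667-34305866, plus strand: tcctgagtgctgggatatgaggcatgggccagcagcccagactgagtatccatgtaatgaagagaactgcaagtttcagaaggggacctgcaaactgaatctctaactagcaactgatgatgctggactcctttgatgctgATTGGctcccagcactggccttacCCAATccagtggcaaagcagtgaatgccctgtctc
Cd68, chr11:69666171-69666370, minus strand: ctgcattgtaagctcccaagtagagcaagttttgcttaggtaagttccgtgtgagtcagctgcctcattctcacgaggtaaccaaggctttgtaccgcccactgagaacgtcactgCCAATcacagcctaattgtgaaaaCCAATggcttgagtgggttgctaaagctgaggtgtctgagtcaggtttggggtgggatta

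In the printed windows the first base of the word lay 53 bases upstream of the RNA start for *C1qb* (ACTTCC), 48 for *H2-Aa* (ATTGG), 59 and 35 for *H2-Eb1* (ATTGG and CCAAT), and 84 and 60 for *Cd68* (CCAAT in both places). A promoter entry was found for 27 of the 39 genes, with 32 windows in all. CCAAT was present in 25.0% of these windows and in 29.3% of the 32851 windows of all genes, and GGAAGT in 37.5% and 16.7%. Of the genes that differed between LM9 and LM1 but are not printed, *C1qc* held GGAAGT. *C1qa* and *H2-Ab1* were not among the genes with either word, for want of a match or of an entry. All matches are letters in a window and not measured binding sites, and 54 bases of the *H2-Eb1* window are also exon of an antisense gene, *Gm20513*.

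Fc receptors bind antibody-coated particles, and their signal passes through the adaptors that *Tyrobp* (DAP12) and *Fcer1g* (the common gamma chain) encode. *Tyrobp* stood at 41.5, 43.3 and 10.5 CPM in HR1, 11.1, 9.04 and 11.1 CPM in LM1 and 5.19, 2.86 and 5.13 CPM in LM9. LM9 did not overlap with either other model, whereas HR1 tumour 3 lay among the LM1 tumours. *Tyrobp* fell in LM1 (log2 fold change -1.61 ± 0.48, edgeR adjusted p = 0.0302) and in LM9 (-2.85 ± 0.51, edgeR adjusted p = 0.00289). *Fcer1g* stood at 31.6, 38.8 and 9.65 CPM in HR1, 12, 9.88 and 10.8 CPM in LM1 and 6.2, 3.69 and 7.27 CPM in LM9, with HR1 tumour 3 just under the LM1 tumours. It fell in LM9 (-2.22 ± 0.48, edgeR adjusted p = 0.00671) and had a value of -1.29 ± 0.46 in LM1 (edgeR adjusted p = 0.0574).

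The receptor genes of this group differed in the size of their values. *Fcgr3*, the low-affinity activating receptor, fell in LM1 (-1.91 ± 0.49, edgeR adjusted p = 0.017) and in LM9 (-2.63 ± 0.51, edgeR adjusted p = 0.00417). *Fcgr1*, the high-affinity receptor CD64, had log2 fold changes of -0.40 ± 0.41 and -0.79 ± 0.41 (edgeR adjusted p = 0.477 and 0.149), with HR1 tumours at 23.8, 30.8 and 9.14 CPM and LM9 tumours at 13.1, 8.15 and 15.6 CPM. Between LM9 and LM1 0 of the 4 genes passed the edgeR test, 1 (*Tyrobp*) had an unadjusted p under 0.05 and was called by DESeq2, limma-voom called 0, and the edgeR fit of the 6 LM tumours alone called 3. The sum of the 4 genes averaged 95.9 ± 53.7 CPM in HR1 (n = 3), 41.8 ± 4.37 CPM in LM1 (n = 3) and 25 ± 7.81 CPM in LM9 (n = 3).

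Among the macrophage surface receptors, the general pattern was carried by *Csf1r*, the receptor of the macrophage growth factor CSF1, and *Adgre1*, which encodes the F4/80 antigen. *Csf1r* stood at 66.1, 74.7 and 17 CPM in HR1, 20.6, 21.1 and 18.2 CPM in LM1 and 11.7, 7.14 and 10.4 CPM in LM9. *Adgre1* stood at 35.4, 65.5 and 14.1 CPM in HR1, 9.93, 7.93 and 10.3 CPM in LM1 and 7.81, 4.62 and 8.82 CPM in LM9. For *Adgre1* every HR1 tumour lay above every LM tumour, whereas for *Csf1r* HR1 tumour 3 lay below the LM1 tumours. *Adgre1* fell in LM1 (-2.03 ± 0.50, edgeR adjusted p = 0.0136) and LM9 (-2.44 ± 0.50, edgeR adjusted p = 0.00573). *Csf1r* fell in LM9 (-2.43 ± 0.48, edgeR adjusted p = 0.00477) and in LM1 (-1.40 ± 0.47, edgeR adjusted p = 0.0444). The LM1 call of *Csf1r* held in 1 of 9 fits without 1 tumour and in 3 of 7 other alternatives. Without the tumour labelled HR1 replicate 1 it was lost at a value of -1.19 (edgeR adjusted p = 0.0729, and 7.7e-04 to 0.128 over the alternatives). Exons of *Csf1r* share 873 bases with *Hmgxb3* on the opposite strand, and the strand setting of the counts was not stated.

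The lectin receptors had the largest decreases of the surface genes. *Mrc1*, the mannose receptor CD206, stood at 28.4, 45.5 and 9.62 CPM in HR1, 5.54, 7.36 and 4.27 CPM in LM1 and 2.73, 1.49 and 1.6 CPM in LM9. The 3 models did not overlap, in the order HR1, LM1, LM9. *Mrc1* fell in LM1 (-2.28 ± 0.53, edgeR adjusted p = 0.0107) and LM9 (-3.84 ± 0.57, edgeR adjusted p = 0.00126), and its value between LM9 and LM1 was -1.56 ± 0.52 (edgeR adjusted p = 0.062). *Clec4n*, which encodes the fungal receptor dectin-2, stood at 7.98, 12.3 and 2.14 CPM in HR1, 1.89, 0.883 and 1.07 CPM in LM1 and 0.687, 0.366 and 0.473 CPM in LM9, again without overlap. *Clec4n* fell by log2 fold changes of -2.54 ± 0.63 in LM1 and -3.87 ± 0.67 in LM9 (edgeR adjusted p = 0.0139 and 0.00251).

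Of the other surface genes, *Trem2*, a lipid receptor that signals through DAP12, fell in LM1 (-1.69 ± 0.53, edgeR adjusted p = 0.0362) and LM9 (-2.53 ± 0.55, edgeR adjusted p = 0.00691). *Ly86*, which encodes the MD-1 partner of RP105, fell in LM9 (-2.35 ± 0.61, edgeR adjusted p = 0.0147) and had a value of -1.56 ± 0.59 in LM1 (edgeR adjusted p = 0.0674). *Cd14*, the co-receptor for lipopolysaccharide, ranged only from 14.7 to 36.5 CPM over the 9 tumours, with log2 fold changes of -0.35 ± 0.29 and -0.60 ± 0.29 (edgeR adjusted p = 0.374 and 0.124). *Cd163*, the haemoglobin scavenger receptor, stood at 1.46, 0.293 and 0.103 CPM in HR1, 0.882, 0.929 and 0.889 CPM in LM1 and 1.2, 1.08 and 1.85 CPM in LM9. The tumour labelled HR1 replicate 1 was within the LM range for *Cd163*, and without it the gene rose in LM1 (2.16, edgeR adjusted p = 0.00708) and LM9 (2.76, edgeR adjusted p = 0.00185), against 0.56 ± 0.78 and 1.17 ± 0.78 with it (edgeR adjusted p = 0.605 and 0.252). No other alternative made this call, and its edgeR adjusted p ranged up to 0.95 and 0.474.

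*Cd68* was the one of the 39 genes that rose in LM9 against LM1. It encodes a lysosomal glycoprotein that is used as a macrophage marker but is also made by other cells rich in lysosomes. *Cd68* stood at 24.2, 122 and 41.2 CPM in HR1, 15.9, 17.7 and 17.9 CPM in LM1 and 107, 135 and 138 CPM in LM9. All LM9 tumours lay above all LM1 tumours, the LM1 tumours were the lowest of the 9, and the HR1 tumours were spread over the gap between them, with HR1 tumour 2 inside the LM9 range. *Cd68* fell in LM1 against HR1 (-1.86 ± 0.50, edgeR adjusted p = 0.0204) and rose in LM9 against LM1 (2.89 ± 0.52, edgeR adjusted p = 0.00726), a 7.4-fold difference with a 95% interval of 1.70 to 4.07 on the log2 scale. Its value in LM9 against HR1 was 1.03 ± 0.49 (edgeR adjusted p = 0.122). The rise against LM1 held in all 9 fits without 1 tumour and in the 7 other alternatives, with adjusted p of at most 0.0402.

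In LM9 *Cd68* had the highest level of the 39 genes also per length, with a mean of 101 RPKM beside 15.9 RPKM for *Cd74* and 10.8 RPKM for *Lyz2*, the next highest. It decided the summed level of LM9, which averaged 372 CPM with *Cd68* and 245 CPM without it, and turned the order of the models for the 9 surface receptors, whose sum averaged 84.7 ± 4.18 CPM in LM1 (n = 3) and 171 ± 14.9 CPM in LM9 (n = 3). *Itgb2*, the common beta chain of the leukocyte integrins, was the one gene of a list of other macrophage and monocyte genes that rose in LM9 against LM1, at 4.47, 5.32 and 4.5 CPM in LM1 and 20.8, 26.7 and 43.3 CPM in LM9 (2.67 ± 0.50, edgeR adjusted p = 0.00856). *Itgb2* was named after its values were seen.

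**Figure D3:**
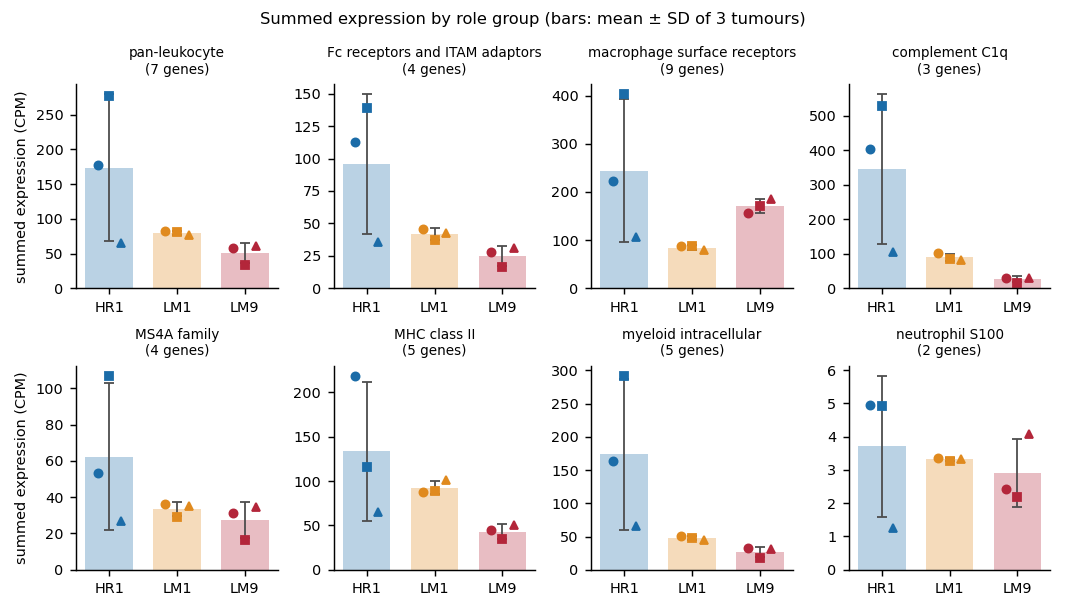
Summed expression of each role group, in TMM-normalized CPM; bars are means of 3 tumours, error bars are SD, and circles, squares and triangles are replicates 1, 2 and 3. HR1 bars are the highest in all 8 groups with wide errors, and LM9 lies above LM1 in the macrophage surface receptors alone, the group that holds *Cd68*.

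The MS4A family of tetraspan membrane proteins, encoded in a cluster on chromosome 19, mostly stayed within the spread of the tumours. *Ms4a7*, a gene of mature macrophages, fell in LM9 (-2.09 ± 0.53, edgeR adjusted p = 0.0138) and had a value of -1.42 ± 0.52 in LM1 (edgeR adjusted p = 0.0617). Without the tumour labelled HR1 replicate 1 it also fell in LM1 (-1.57, edgeR adjusted p = 0.0419, and 0.0116 to 0.247 over the alternatives). *Ms4a6c* and *Ms4a6d* had log2 fold changes from -0.84 to -1.02 against HR1, none past the threshold (edgeR adjusted p of at least 0.102). *Ms4a4c* stood at 7.05, 6.46 and 3.35 CPM in HR1, 8.88, 5.75 and 8.79 CPM in LM1 and 8.69, 4.49 and 8.98 CPM in LM9. The 3 models overlapped, and its log2 fold changes of 0.48 ± 0.38 and 0.40 ± 0.38 did not pass the test (edgeR adjusted p = 0.355 and 0.424). Between LM9 and LM1 0 of the 4 MS4A genes passed the edgeR test, 0 had an unadjusted p under 0.05, DESeq2 and limma-voom each called 0, and the edgeR fit of the 6 LM tumours alone called 1 (*Ms4a7*).

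MHC class II molecules present peptides to CD4 T cells. They are made of alpha and beta chains, here *H2-Aa* with *H2-Ab1* for I-A and *H2-Eb1* for the beta chain of I-E, and are escorted by the invariant chain CD74, and their transcription depends on the coactivator CIITA. *Cd74* stood at 89.5, 52.4 and 25.9 CPM in HR1, 38.1, 36.1 and 39.4 CPM in LM1 and 27.4, 20.6 and 32 CPM in LM9. *H2-Aa* stood at 61.1, 28.6 and 17.7 CPM in HR1, 18.9, 20.3 and 25.2 CPM in LM1 and 6.93, 4.94 and 7.2 CPM in LM9. In contrast to most other genes, the tumour labelled HR1 replicate 1 was the highest of the HR1 tumours for both. *H2-Ab1* stood at 29.7, 15.9 and 10.4 CPM in HR1, 14.8, 15.2 and 18.1 CPM in LM1 and 4.36, 3.43 and 4.61 CPM in LM9. *H2-Eb1* stood at 38.7, 18.9 and 11.1 CPM in HR1, 14.7, 14.4 and 17.8 CPM in LM1 and 4.46, 3.57 and 5.56 CPM in LM9. For the 3 chain genes LM9 lay apart from both other models, whereas HR1 and LM1 overlapped.

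The chain genes fell in LM9 against both other models. Against LM1 the log2 fold changes were -1.75 ± 0.41 for *H2-Aa*, -1.96 ± 0.36 for *H2-Ab1* and -1.79 ± 0.41 for *H2-Eb1* (edgeR adjusted p = 0.0187, 0.00737 and 0.0178), and this difference held in 4, 9 and 5 of 9 fits without 1 tumour. Against HR1 they were -2.49 ± 0.42, -2.17 ± 0.36 and -2.34 ± 0.42 (edgeR adjusted p = 0.0023, 0.00211 and 0.00305). In LM1 against HR1 they were -0.74 ± 0.40, -0.22 ± 0.34 and -0.55 ± 0.40 (edgeR adjusted p = 0.18, 0.653 and 0.311). Without the tumour labelled HR1 replicate 1 the values of *H2-Ab1* and *H2-Eb1* in LM1 turned to 0.29 and 0.06, and the class II sum of HR1 was 0.981 times that of LM1 rather than 1.44 times. *Cd74* fell in LM9 against HR1 (-1.07 ± 0.38, edgeR adjusted p = 0.0499), a call that was lost without that tumour (-0.55, edgeR adjusted p = 0.11, and 0.00382 to 0.144 over the alternatives) and that held in 1 of 9 fits without 1 tumour.

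*Ciita* moved the other way. It stood at 0.465, 0.315 and 0.335 CPM in HR1, 1.51, 2.29 and 0.889 CPM in LM1 and 1.12, 1.74 and 1.24 CPM in LM9. Every LM tumour lay above every HR1 tumour, though all values were low. *Ciita* rose in LM1 (2.07 ± 0.46, edgeR adjusted p = 0.00888) and LM9 (1.88 ± 0.46, edgeR adjusted p = 0.0116), in every alternative, and its value between LM9 and LM1 was -0.20 ± 0.43 (edgeR adjusted p = 0.77). Exons of *Ciita* share 329 bases with *Dexi* on the opposite strand, so part of these counts may belong to that gene. Of 11 class II accessory genes (further chains, peptide loading factors, regulators and the costimulatory genes *Cd40* and *Cd80*) 8 were listed, of which 1 rose and 0 fell in LM1 against HR1 and 2 rose and 2 fell in LM9. The 1 that rose in LM1 was *Cd40*. Without the tumour labelled HR1 replicate 1, 2 rose and 0 fell in LM1, and 2 rose and 2 fell in LM9. *Cd40*, a receptor through which T cells stimulate antigen-presenting cells, rose in both, from 2.08 to 2.61 CPM in HR1 to 16.4 to 18.3 CPM in LM1 and 10.1 to 11.9 CPM in LM9 (2.92 ± 0.19 and 2.23 ± 0.19, edgeR adjusted p = 6.5e-05 and 9.6e-05).

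The neutrophil genes *S100a8* and *S100a9*, which encode the subunits of calprotectin, were low throughout. *S100a8* stood at 1.9, 2.86 and 1 CPM in HR1, 1.97, 1.59 and 2.36 CPM in LM1 and 1.18, 1.58 and 1.98 CPM in LM9. *S100a9* stood at 3.06, 2.07 and 0.257 CPM in HR1, 1.39, 1.68 and 0.965 CPM in LM1 and 1.24, 0.618 and 2.09 CPM in LM9. The models overlapped for both genes, and their log2 fold changes in the 3 comparisons lay between -0.44 and 0.04 with edgeR adjusted p of at least 0.624. For *S100a9* the SE was 0.77, so that only large differences were detectable.

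All 5 intracellular myeloid genes fell in both LM models against HR1 in the edgeR fit. In LM9 limma-voom also called all 5, whereas in LM1 it called 2, and the LM1 calls of *Spi1*, *Cybb*, *Aif1*, *Lyz2* and *Ncf1* held in 2, 5, 6, 6 and 9 of 9 fits without 1 tumour. *Lyz2*, the macrophage and granulocyte lysozyme, stood at 87.2, 208 and 38.8 CPM in HR1, 30.1, 27.2 and 26.7 CPM in LM1 and 17.5, 9.16 and 16.2 CPM in LM9. The 3 models did not overlap, with HR1 the highest and LM9 the lowest. *Lyz2* fell by log2 fold changes of -1.99 ± 0.53 in LM1 and -2.96 ± 0.55 in LM9 (edgeR adjusted p = 0.0195 and 0.00366). The calcium-binding protein gene *Aif1* (IBA1) fell by -1.68 ± 0.47 and -3.03 ± 0.50 (edgeR adjusted p = 0.0233 and 0.00201), and *Spi1* by -1.36 ± 0.44 and -2.17 ± 0.45 (edgeR adjusted p = 0.0395 and 0.0058). The NADPH oxidase genes *Cybb*, the membrane subunit, and *Ncf1*, a cytosolic subunit, fell by -1.72 ± 0.49 and -1.72 ± 0.35 in LM1 (edgeR adjusted p = 0.0243 and 0.00584) and by -1.96 ± 0.49 and -2.22 ± 0.35 in LM9 (edgeR adjusted p = 0.0132 and 0.00173). Exons of *Ncf1* share 408 bases with *Gtf2ird2* on the opposite strand. Between LM9 and LM1 0 of the 5 passed the edgeR test, 1 (*Aif1*) had an unadjusted p under 0.05 and was called by DESeq2, limma-voom called 0, and the edgeR fit of the 6 LM tumours alone called 3.

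In HR1 and LM9, but not in LM1, the same tumour was the lowest of its model for most of the genes. HR1 tumour 3 was the lowest of the HR1 tumours for 37 of the 39 genes (94.9%) and HR1 tumour 2 the highest for 30 (76.9%), shares that were 31% and 28.6% over all tested genes. LM9 tumour 2 was the lowest of the LM9 tumours for 36 genes (92.3%), against 32.9% of all tested genes, and the lowest of all 9 for 31. In LM1 no tumour was the lowest for more than 16 genes. The means followed the order HR1, LM1, LM9 for 33 genes (84.6%), which held for 21.9% of all tested genes, and the other 6 were *Ptprc*, *Cd68*, *Cd163*, *Ms4a4c*, *Ciita* and *S100a8*.

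The summed level of each role group was also divided by the pan-leukocyte sum of the same tumour. The C1q ratio was 1.59 to 2.27 in HR1, 1.04 to 1.24 in LM1 and 0.478 to 0.531 in LM9, without overlap between models. The ratio of the intracellular myeloid genes was 0.914 to 1.05, 0.583 to 0.614 and 0.504 to 0.549, and that of *Mrc1* 0.148 to 0.164, 0.0557 to 0.0915 and 0.0264 to 0.0468, both in the same order. The Fc receptor and adaptor ratio, by contrast, was 0.501 to 0.638, 0.461 to 0.555 and 0.477 to 0.513, with all models overlapping. HR1 tumour 3, low in summed level, had an intracellular myeloid ratio of 1, between those of HR1 tumours 1 and 2 (0.914 and 1.05). Its *Mrc1* ratio of 0.148 was close to theirs (0.16 and 0.164) and above those of LM1. Its C1q ratio of 1.59 lay between theirs (2.27 and 1.9) and those of LM1 (up to 1.24).

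Other ratios ran the opposite way. For the MS4A family the ratio was 0.299 to 0.416 in HR1, 0.364 to 0.456 in LM1 and 0.483 to 0.572 in LM9, with overlap between HR1 and LM1, and for the neutrophil S100 genes it was 0.0178 to 0.0279, 0.0405 to 0.0434 and 0.0416 to 0.0673, with overlap between LM1 and LM9. The macrophage surface receptors, with *Cd68* among them, had ratios of 1.26 to 1.64, 1.04 to 1.08 and 2.67 to 5.05, lowest in LM1 and highest in LM9. *Ms4a4c* over the pan-leukocyte sum was 0.0234 to 0.0513 in HR1, 0.0715 to 0.115 in LM1 and 0.133 to 0.149 in LM9, and *Fcgr1* 0.111 to 0.14, 0.178 to 0.216 and 0.224 to 0.259. The MHC class II ratio overlapped between HR1 (0.42 to 1.23) and both LM1 (1.07 to 1.32) and LM9 (0.76 to 1.02). Within that group, *H2-Aa* over *Cd74* was 0.545 to 0.684 in HR1 and 0.496 to 0.64 in LM1 but 0.225 to 0.253 in LM9. *Cd68* over the pan-leukocyte sum was 0.136 to 0.632, 0.192 to 0.233 and 1.84 to 4.01. The ratios are given as descriptions, and no test was run on them.

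**Figure D4:**
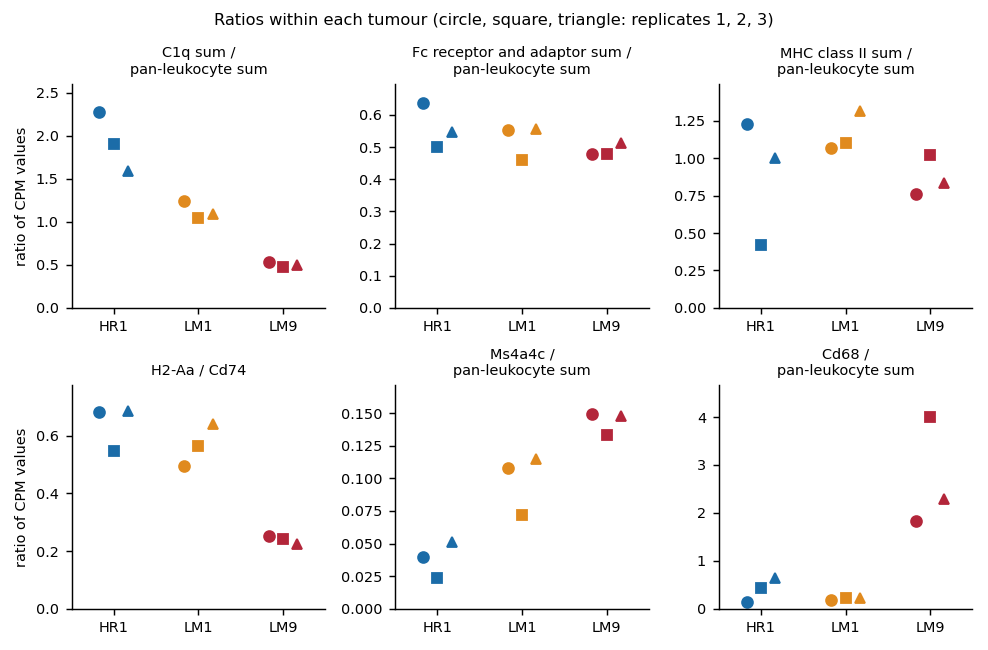
Ratios of CPM values within each of the 9 tumours; circles, squares and triangles are replicates 1, 2 and 3. C1q over the pan-leukocyte sum steps down from HR1 to LM1 to LM9, *Ms4a4c* steps up, the Fc receptor and adaptor ratio stays between 0.461 and 0.638, and LM9 stands apart for *H2-Aa* over *Cd74* and for *Cd68*.

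Genes of the same lineage and of other cell types were counted beside these. Of 35 other macrophage and monocyte genes 30 were listed, of which 9 fell in LM1 and 12 fell in LM9 against HR1, 0 and 1 rose, and the median log2 fold changes were -1.14 and -1.26. Among their most abundant genes were *Pla2g7*, a lipoprotein-associated phospholipase that fell in both (-4.19 ± 0.35 and -5.30 ± 0.37, edgeR adjusted p = 1.4e-04 and 3.9e-05), and the lysosomal protease gene *Ctss*, which fell in LM9 (-1.75 ± 0.53, edgeR adjusted p = 0.0274). All 32 genes of a haematopoietic signalling list were listed, of which 16 fell in LM1 and 20 in LM9 and 0 rose, with medians of -1.35 and -1.83. Its most abundant gene *Arhgdib*, a signalling regulator of blood cells, stood at 148, 77.9 and 38.1 CPM in HR1, 20, 20 and 20 CPM in LM1 and 3.43, 1.81 and 3.85 CPM in LM9. The next most abundant, *Nckap1l*, an actin regulator of blood cells, had values of -0.76 ± 0.42 and -0.15 ± 0.42 against HR1 (edgeR adjusted p = 0.19 and 0.796). *Evi2a* fell in LM1 (-2.35 ± 0.40, edgeR adjusted p = 0.0026), had a value of -0.53 ± 0.38 in LM9 (edgeR adjusted p = 0.278) and rose in LM9 against LM1 (1.82 ± 0.39, edgeR adjusted p = 0.0134).

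Of the mast cell genes 6 of 7 were listed, and 5 fell in LM1 and in LM9 against HR1, with median log2 fold changes of -5.73 and -6.56. *Tpsb2*, a mast cell tryptase, stood at 16.3, 25.1 and 10.7 CPM in HR1 and at no more than 0.508 CPM in any LM tumour. *Kit*, a receptor tyrosine kinase that is the most abundant gene of the list, was the one that did not fall, at 2.59, 1.08 and 9.7 CPM in HR1, 17.6, 19 and 17 CPM in LM1 and 4.42, 6.04 and 1.01 CPM in LM9. Haemoglobin and platelet genes, 6 of 8 listed, summed to 30.2 to 258 CPM in HR1, 25.1 to 71.7 CPM in LM1 and 8.61 to 21.4 CPM in LM9, and 5 fell in LM9 (HR1 30.2 to 128 CPM without the tumour labelled HR1 replicate 1). Lymphocyte genes were few, with 5 of 17 T and NK cell genes and 3 of 8 B cell genes listed. The listed B cell genes summed to 1.46 to 2.63 CPM in HR1, 16.7 to 18.6 CPM in LM1 and 5.01 to 6.95 CPM in LM9, and in LM1 2 of them rose, *Blk* (4.47 ± 1.04, edgeR adjusted p = 0.0112) and *Pax5*, which was at no more than 0.0257 CPM in HR1, under the level of 3 counts, and at 0.61 to 1.34 CPM in LM1 (edgeR adjusted p = 0.00105). *Cd79b*, a chain of the B cell receptor complex and the third of the listed genes, fell in both LM models against HR1, at 2.63, 1.1 and 0.309 CPM in HR1, 0.315, 0.0453 and 0.0508 CPM in LM1 and 0.0644, 0.0458 and 0.0675 CPM in LM9 (edgeR adjusted p = 0.0263 and 0.00932). The LM9 values of *Cd79b* and those of LM1 tumours 2 and 3 were at or under the level of 3 counts. LM1 tumour 1 lay just above HR1 tumour 3 for this gene. In LM9 1 of the 3 B cell genes rose, and 2 without the tumour labelled HR1 replicate 1. *Cd3e*, *Cd3d*, *Cd8a* and *Cd79a* were not among the listed genes, and the listed T and NK cell genes summed to 1.52 to 6.46 CPM. Neutrophil genes, 5 of 14 listed without *Ly6g* or *Elane*, summed to 7.45 to 28.7 CPM in HR1, 22.5 to 25.6 CPM in LM1 and 8.4 to 15.2 CPM in LM9 (HR1 16.1 to 28.7 CPM without that tumour). Dendritic cell genes, 4 of 8 listed without *Xcr1* or *Clec9a*, summed to 4.14 to 10.4 CPM in HR1, 28.5 to 33 CPM in LM1 and 34.3 to 41.4 CPM in LM9, and 2 rose and 0 fell in each LM model against HR1. The 2 that rose were *Ccr7* (4.14 ± 0.32 and 5.04 ± 0.34) and *Zbtb46* (2.06 ± 0.34 and 1.52 ± 0.34). *Itgax*, by contrast, had values of -0.75 ± 0.73 and -1.14 ± 0.73 (edgeR adjusted p = 0.448 and 0.235). Endothelial genes, 7 of 8 listed, summed to 9.8 to 35 CPM in HR1, 166 to 229 CPM in LM1 and 260 to 297 CPM in LM9. Of the 7, 2 rose and 0 fell in LM1 against HR1, and 2 rose and 3 fell in LM9, which became 2 and 2 in LM1 and 2 and 4 in LM9 without the tumour labelled HR1 replicate 1. The 2 that rose were *Cdh5*, the cadherin of endothelial junctions (4.67 ± 0.68 and 5.26 ± 0.70, edgeR adjusted p = 0.00141 and 8.2e-04), and *Kdr*, a VEGF receptor (4.60 ± 0.46 and 4.84 ± 0.47, edgeR adjusted p = 3.0e-04 and 1.8e-04). Without the tumour labelled HR1 replicate 1, 11 and 14 of the other macrophage genes, 19 and 21 of the haematopoietic signalling genes and 5 and 5 of the mast cell genes fell in LM1 and LM9. The part of these cell types in the levels of the 39 genes was not tested.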

How the data were processed

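RNA-seq of GFP-positive cells from 9 tumours was analysed, 3 each of HR1, LM1 and LM9. The authors prepared stranded mRNA libraries, aligned single reads to mm10 with STAR, counted 5′ ends over exons with QuasR under an exon union model, and deposited whole-number counts per Entrez gene, not normalized. The strand setting of the gene counts and the filter that left 14108 genes are not given in the sources used here. Symbols came from RefSeq GRCm38.p6 (14085 genes matched) and exon lengths from GENCODE.

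The 39 genes, their roles and the other lists were chosen with earlier results of these data known. Models and replicate numbers came from the labels, which do not say that the tumours came from separate mice, so p-values measure the spread between these samples. Chi-square tests found no pair of tumours of the same model alike within sampling noise, and each was 1 replicate. edgeR 4.0.16 (R 4.3.3) was run with TMM factors (0.928 to 1.05), filterByExpr (22 genes left out), 1 model over the 3 groups and robust quasi-likelihood F-tests, with Benjamini-Hochberg adjustment over 14086 genes and a threshold of 0.05. SEs were the log2 fold change over the square root of F, and intervals used the total degrees of freedom of the test (residual plus prior). The test was tried on simulated counts. Values in every tumour were set to be printed for the genes that define each role and for the 5 largest increases and decreases of each comparison. Genes named from other lists were among the 3 most abundant of each, apart from *Itgb2* and the genes given as not listed, which were chosen after the values were seen. At this depth every one of the 39 genes had over 3 counts in each tumour. Promoter windows were read from RefSeq promoters and searched for 2 words. Alternatives were RLE factors, library size alone, no filter, DESeq2 1.42.0, limma-voom 3.58.1 (the test of the study), a replicate block, only the 6 tumours compared, and leaving out each tumour.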

Additional observations from a re-analysis of the deposited data

Results flagged for a closer look

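The values of LM1 and LM9 against HR1 differed, by the test of LM9 against LM1, for 7 of the 39 genes (17.9%), where 22.0% of all tested genes were called in either direction. *Cd68* stood apart because the direction also differed, with log2 fold changes against HR1 of -1.86 in LM1 and 1.03 in LM9, the latter not past the threshold, and a difference of 2.89 ± 0.52 (edgeR quasi-likelihood adjusted p = 0.00726). For the other 6 LM9 lay below LM1. The C1q chains also fell in LM1 against HR1, whereas the class II chains did not pass the test there. These differences were -1.82 for *C1qa*, -1.79 for *C1qb*, -1.77 for *C1qc*, -1.75 for *H2-Aa*, -1.96 for *H2-Ab1* and -1.79 for *H2-Eb1*.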

How the results depend on the processing

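The median log2 fold changes kept their sign and moved by less than the spread between replicates in all 48 alternative fits, from -1.70 to -0.87 in LM1 versus HR1, -2.46 to -1.68 in LM9 versus HR1 and -0.88 to -0.50 in LM9 versus LM1. The number of genes called was within 1.5 times the reported one in 30 of 48 fits. The 18 calls of LM1 versus HR1 became 11 with limma-voom, 11 with a replicate block and 9 with only the 6 tumours compared (25.6%, 25.6% and 20.5% of the 39 genes fell, beside 16.4%, 14.8% and 11.8% of all tested genes), and 3 to 30 when 1 tumour was left out. The 7 calls of LM9 versus LM1 became 4, 4 and 25 under the same settings (7.69%, 7.69% and 61.5% fell, beside 11.5%, 7.46% and 28.0% of all tested genes), and 2 to 15 when 1 tumour was left out. The 29 calls of LM9 versus HR1 stayed between 21 and 33. Same-numbered tumours correlated in their deviations from the model means with r from -0.106 to 0.342, not all over 0.1, and not every tumour correlated best with its own number, so the numbers were not taken as pairs. The block gave 26 calls in LM9 versus HR1. The summed level of LM9 fell to 245 CPM without *Cd68*, and 17 of 18 alternative values of the summed levels moved by less than 1 SD. Leaving out 1 tumour from the sums was chosen after seeing the data.

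Over all 39 genes, 19 of 1872 alternative values changed sign. They met only genes whose values were not past the threshold under either setting. In LM1 versus HR1 they came with 1 tumour left out, over ranges of -0.51 to 0.29 for *H2-Ab1* and -0.88 to 0.06 for *H2-Eb1* (the highest without HR1 replicate 1), -0.93 to 0.21 for *S100a9* and -0.27 to 0.45 for *S100a8* (also -0.11 without LM1 replicate 3). In LM9 versus HR1 the ranges were -0.59 to 0.13 for *S100a8* and -0.96 to 0.17 for *S100a9*. In LM9 versus LM1 they were -0.25 to 0.15 for *Ms4a4c* (also 0.02 and 0.01 without LM1 replicates 1 and 3), -0.39 to 0.08 for *Ms4a6c*, -0.37 to 0.12 for *Ms4a6d*, -0.48 to 0.19 for *Ciita* and -0.53 to 0.28 for *S100a9*, the last with 0.17 and 0.01 without LM1 replicate 2 and LM9 replicate 1. With limma-voom *S100a9* turned to 0.19 and 0.03 in LM1 and LM9 versus HR1, and with the replicate block to 0.08 in LM9 versus LM1. The cause was not tested. At 4 counts, the lowest of *Cd163*, counting error adds to the spread between tumours.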
